A study of Mus musculus with 12 samples.

Results

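Open chromatin of non-cycling SOX2+ cells was compared with that of SOX2- bulk cells in mouse SHH medulloblastoma, using both libraries titled SOX2+/MKI67- and all 4 libraries titled SOX2-, 6 of the 12 libraries of the series. Libraries were placed in groups by their titles alone, with no measured value. The choice of these libraries and of the gene lists used below was made with earlier results of these data known. All cells came from endpoint brain tumours of untreated Ptch1+/- mice, which carry 1 intact copy of Ptch1, so no normal tissue stands beside them. Cells were sorted on eGFP for SOX2 and, among SOX2+ cells, on RFP for MKI67, and 35000 to 50000 live cells entered each reaction. The other 6 libraries, 4 of SOX2+ cells and 2 of cycling SOX2+/MKI67+ cells, took no part in choosing any region and are used to place the result. Titles of the 4 SOX2+ libraries name no MKI67 sort, so their cells can include non-cycling cells. The series asks which open regions distinguish the stem-like cells from the tumour bulk.

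ATAC-seq inserts sequencing adapters into DNA that is not wrapped tightly in nucleosomes, so a peak marks an accessible stretch such as an active promoter or enhancer. SHH medulloblastoma arises in the cerebellum and depends on hedgehog signalling, which is restrained by PTCH1, carried by SMO and carried out by the GLI transcription factors. Its bulk resembles granule neuron progenitors, the cerebellar cells that depend on ATOH1. SOX2 is a transcription factor of neural stem cells, and OLIG2 is a basic helix-loop-helix factor of glial and neuronal progenitors. In these tumours SOX2+ cells that divide rarely are known as a stem-like minority from which dividing progenitors arise.

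Each library is a list of peaks called on that library alone. The SOX2+/MKI67- lists held 19229 and 17615 peaks, and the SOX2- lists held 7009, 26206, 12660 and 21682. Both non-cycling lists lie inside the wide SOX2- range. List-wide measures, region classes and gene fits were therefore computed on the full lists and again after cutting every list to its 7009 strongest peaks, the length of the shortest, ranked by the deposited -log10 q-value. Promoter matches and the regions counted at gene lists were computed on full lists only. A peak that a library lacks can have fallen short of its calling threshold by little, and in a sorted population fewer open cells and weaker opening in each cell cannot be told apart. No label says that replicates were separate animals, so p-values measure only the spread between these libraries, which may be technical.

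**Figure D1:**
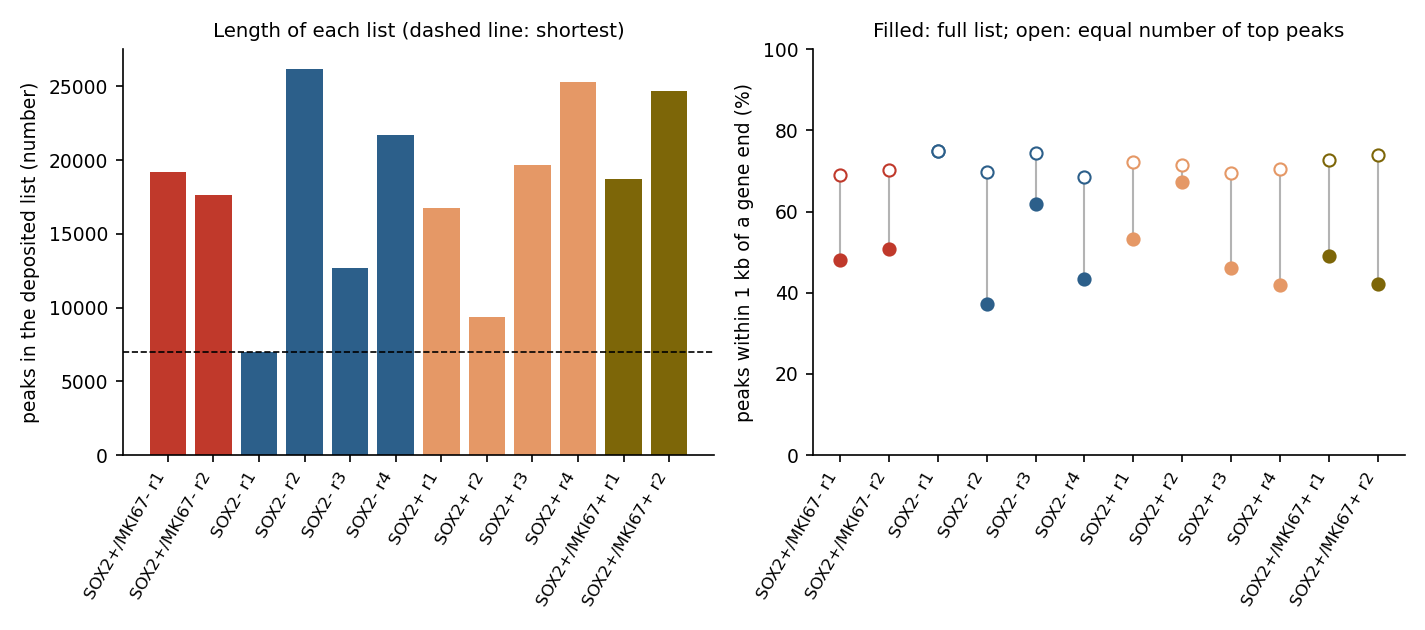
Left, number of peaks in each of the 12 deposited lists, coloured by sort. Right, percentage of peaks at gene ends (within 1 kb) in each library, filled for the full list and open for the 7009 strongest peaks. The 4 SOX2- lists span 7009 to 26206 peaks and 37.4% to 74.9% at gene ends, and the 2 SOX2+/MKI67- lists lie inside both ranges.

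As wholes, the 2 kinds of list were only partly distinct. Peaks at gene ends, within 1 kb, made up 49.4% ± 2.03 (SD, n = 2) of SOX2+/MKI67- and 54.4% ± 17.2 (n = 4) of SOX2- lists, a difference inside the spread of replicates (two-sided exact permutation p = 0.8). Its sign depended on the shortest list, since without SOX2- replicate 1 the share was 1.94 percentage points higher in the non-cycling lists. At equal length the means were 69.6% ± 0.999 and 71.9% ± 3.30 (exact p = 0.4). With 2 libraries against 4, the 15 possible assignments allow no p under 0.0667.

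Shared length over joint length of a pair of lists (the Jaccard index, in base pairs) was 0.583 for the pair of SOX2+/MKI67- lists and 0.274 to 0.411 between a SOX2+/MKI67- and a SOX2- list. The pair of non-cycling lists thus resembled each other more than either resembled any bulk list. Over all pairs the mean was 0.402 within the 2 groups and 0.365 between them (one-sided exact permutation p = 0.267). At equal length it was 0.508 within and 0.447 between (exact p = 0.0667, the smallest the design allows). Non-cycling lists overlapped other SOX2+ sorts more than bulk, with indices of 0.508 to 0.598 against SOX2+ and 0.569 to 0.602 against SOX2+/MKI67+ lists at equal length, where those against SOX2- were 0.390 to 0.482. On full lists the ranges overlapped. SOX2+/MKI67- replicate 1 had an index of 0.402 with the shortest SOX2+ list, replicate 2, and of 0.410 with SOX2- replicate 4.

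Overlapping peaks of the 12 lists merged into 44242 regions. Of these, 2749 (6.21%) were listed in both SOX2+/MKI67- libraries and in no SOX2- library, and are called non-cycling regions here. Another 271 (0.613%) were listed in all 4 SOX2- libraries and in neither SOX2+/MKI67- library, and are called bulk regions. A further 5906 regions (13.3%) were in all 6 lists. The 2 class sizes cannot be compared, because presence in 4 lists, 1 of them short, is a harder condition than presence in 2. With each list cut to its 7009 strongest peaks, 787 regions (1.78%) were in both non-cycling lists and no bulk list, and 321 (0.726%) in all bulk lists and no non-cycling list. These equal-length classes are differences in rank rather than absences, since 68.2% and 62.3% of the 321 were in the full SOX2+/MKI67- lists, and 0%, 35.5%, 13.3% and 38.4% of the 787 were in the full lists of SOX2- replicates 1 to 4. Without SOX2- replicate 1 the bulk regions numbered 1491, and with only 1 SOX2+/MKI67- library required the non-cycling regions numbered 4365 or 5237. A stricter set was used to rank regions, namely those among the 7009 strongest peaks of every list of 1 group and absent from every full list of the other. It held 427 non-cycling (0.965%) and 92 bulk regions (0.208%).

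On full lists, regions of both classes lay mostly away from gene ends. Only 9.71% of the 2749 non-cycling regions had their midpoint within 1 kb of a gene end, 50.7% lay inside genes and 39.6% between genes. Of the 271 bulk regions 12.9% were at gene ends, 38.7% inside genes and 48.3% between genes. Regions in all 6 lists stood apart from both, with 81.5% at gene ends, beside 27.3% of all 44242 regions. Between genes, the median distance to the nearest gene was 42.4 kb for non-cycling and 80.1 kb for bulk regions. In the stricter sets 2.58% of non-cycling and 4.35% of bulk regions were at gene ends, the latter at Zic2, Stmn2, Dazap1 and Hsd17b10. The equal-length classes differed from each other, with 18.2% of the 787 non-cycling regions at gene ends, below the 27.3% of all regions, and 42.7% of the 321 bulk regions, above it.

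The 12 non-cycling regions with the best worst rank over both lists illustrate the class. The first, chr2:150643830-150644559 inside Acss1, the mitochondrial acetyl-CoA synthetase, ranked 48 and 285 in the SOX2+/MKI67- lists, with deposited fold enrichments of 9.0 and 8.36 over local background. It was in no SOX2- list and in all 4 SOX2+ and both SOX2+/MKI67+ lists. The others were nearest to Ccl25, Mmp16, Ctnnd2, Tafa5, Traf3ip2, Inpp4a, Olig2, Fam89a, Ptk2, Ccdc34 and Amotl2. All 12 were listed in each of the 4 SOX2+ and both cycling libraries. The Olig2 region, chr16:91233286-91234048, lay 4.99 kb beyond the gene and ranked 1455 and 1436, with folds of 5.06 and 5.72.

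The corresponding 12 bulk regions were led by chr10:34904188-34904934, which was 293 kb from its nearest gene, Frk. They were nearest to Frk, Gm38821, Fzd1, Cerkl, Thnsl1, Edn2, Igf2bp3, Etnk1, Grm7, Isl2, Pard3 and Gm11232. Every one was in both SOX2+/MKI67+ lists, but only in 1 to 3 of the 4 SOX2+ lists. The region inside Isl2, a LIM-homeodomain factor of neurons, was chr9:55540764-55541306 with folds of 4.13, 5.60, 4.29 and 5.93 in SOX2- replicates 1 to 4.

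Most non-cycling regions were also listed in other SOX2+ libraries. Of the 2749, 1495 (54.4%) were in both cycling lists and 687 (25.0%) in all 4 SOX2+ lists, beside 36.6% and 19.6% of all merged regions. Of the same regions 78 (2.84%) were in none of the other 6 lists, beside 25.2% of all merged regions. All merged regions include those listed in a single library, so these shares are not like for like. Of the 427 stricter regions 94.4% were in both cycling lists and 76.8% in all 4 SOX2+ lists, and 0 of 427 were missing from all 6. Of the 787 equal-length regions 96.3% were in both cycling lists and 79.5% in all 4 SOX2+ lists. These were chosen among strong peaks, and the share for other peaks of like strength was not measured. Because the SOX2+ libraries can include non-cycling cells, only the cycling lists bear on whether a region is restricted to the non-cycling sort. Cycling replicates 1 and 2 listed 56.6% and 84.5% of the 2749 regions. They listed 94.6% and 99.8% of the 427 stricter regions, so few of these strong regions were restricted to the non-cycling sort.

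The bulk regions were listed unevenly in the other SOX2+ sorts. SOX2+ replicates 1 to 4 listed 17.0%, 1.85%, 66.1% and 41.0% of the 271, and the cycling replicates 75.3% and 79.0%. The same libraries listed 37.0%, 20.9%, 43.5%, 56.1%, 41.4% and 54.8% of all regions. The share of bulk regions was above that of all regions in both cycling libraries and SOX2+ replicate 3, and below it in SOX2+ replicates 1, 2 and 4. In all 6 of these lists stood 2 bulk regions, at Zic2 and Dazap1. The 321 equal-length bulk regions gave another picture. SOX2+ replicates 1 to 4 listed 71.7%, 45.8%, 94.1% and 84.1% of them and the cycling replicates 95.3% and 96.9%, each above the share of all regions, and 144 were in all 6 lists. SOX2+ replicates differ among themselves here, and no difference between SOX2+ and SOX2+/MKI67+ cells was tested on these shares.

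**Figure D2:**
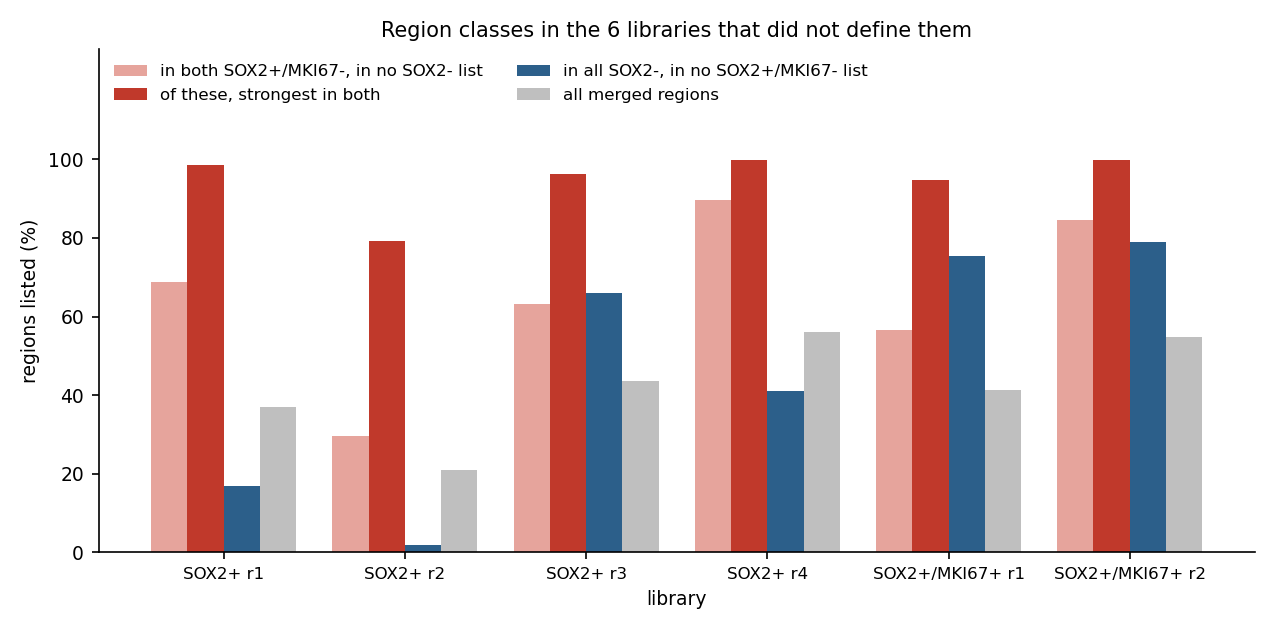
Percentage of each region class listed in the 4 SOX2+ and 2 SOX2+/MKI67+ libraries, which did not define the classes. Bars stand for the 2749 non-cycling regions, the 427 of them that are strong in both lists, the 271 bulk regions and all 44242 regions. The strong non-cycling regions reach 79.2% to 99.8% in every library, and the bulk regions range from 1.85% in SOX2+ replicate 2 to 79.0% in SOX2+/MKI67+ replicate 2.

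Where a full-list class region overlaps a promoter window by at least 1 base, the sequence of that window can be shown. The promoter table of RefSeq (GRCm38.p6, the coordinates of mm10) had 193 windows of 175 genes that overlapped non-cycling regions and 34 windows of 29 genes that overlapped bulk regions. Those of 3 genes of stem cells or Notch signalling from the non-cycling class are given first, as the 250 bases 5′ to 3′ before the start site. Fabp7 encodes a lipid-binding protein typical of radial glia (chr10:57784673-57784922, plus strand), Sox21 a factor of the SOX family (chr14:118237031-118237280, minus strand), and Hes5 a Notch target that holds back differentiation (chr4:154960673-154960922, plus strand). Capitals mark matches, on either strand, to ACAATG or ACAAAG, which SOX factors recognise, to the E-boxes CAGCTG or CAGATG of basic helix-loop-helix factors, and to the GLI sequence TGGGTGGTC.
Fabp7: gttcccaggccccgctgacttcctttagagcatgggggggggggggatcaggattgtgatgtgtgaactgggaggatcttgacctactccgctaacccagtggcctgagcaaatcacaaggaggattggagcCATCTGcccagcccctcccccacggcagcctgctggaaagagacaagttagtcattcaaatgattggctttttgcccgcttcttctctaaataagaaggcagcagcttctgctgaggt
Sox21: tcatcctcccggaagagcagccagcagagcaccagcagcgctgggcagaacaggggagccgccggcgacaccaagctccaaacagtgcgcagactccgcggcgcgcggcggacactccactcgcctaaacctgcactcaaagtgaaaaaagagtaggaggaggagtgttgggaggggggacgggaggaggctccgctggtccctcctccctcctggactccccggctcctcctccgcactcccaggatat
Hes5: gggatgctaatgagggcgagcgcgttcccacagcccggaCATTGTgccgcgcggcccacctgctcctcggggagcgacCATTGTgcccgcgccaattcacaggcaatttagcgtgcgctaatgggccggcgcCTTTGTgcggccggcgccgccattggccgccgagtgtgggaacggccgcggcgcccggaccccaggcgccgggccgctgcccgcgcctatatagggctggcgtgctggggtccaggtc

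The 3 bulk promoters shown are those of Atoh1, the factor of granule neuron progenitors (chr6:64728875-64729124, plus strand), Lhx2, a LIM-homeodomain factor of progenitors, at a start site inside its gene span (chr2:38351058-38351307, plus strand), and Smo, the transducer of hedgehog signals (chr6:29735247-29735496, plus strand). The Smo region begins inside its window, and the other 5 regions cover theirs. They are printed in the same way.
Atoh1: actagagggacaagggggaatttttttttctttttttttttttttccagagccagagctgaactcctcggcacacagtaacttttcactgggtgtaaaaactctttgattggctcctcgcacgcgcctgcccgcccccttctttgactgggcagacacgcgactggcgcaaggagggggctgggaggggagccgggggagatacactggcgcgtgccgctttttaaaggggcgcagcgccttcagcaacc
Lhx2: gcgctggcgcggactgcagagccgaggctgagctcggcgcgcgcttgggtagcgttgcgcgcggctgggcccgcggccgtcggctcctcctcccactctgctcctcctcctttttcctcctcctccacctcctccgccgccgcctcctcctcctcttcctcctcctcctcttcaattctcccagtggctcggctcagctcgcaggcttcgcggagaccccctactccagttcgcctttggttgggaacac
Smo: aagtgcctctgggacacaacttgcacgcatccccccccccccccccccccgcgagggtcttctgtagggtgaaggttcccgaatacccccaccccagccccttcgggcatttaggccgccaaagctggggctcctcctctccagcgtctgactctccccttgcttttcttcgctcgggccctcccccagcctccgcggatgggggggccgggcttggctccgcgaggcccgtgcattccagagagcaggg

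Hes5 held 3 SOX matches, all on the opposite strand, Fabp7 held 1 E-box, and the other 4 windows held none of these letters. Over the same window of 250 bases before start sites, SOX matches were in 23.3% of the 193 non-cycling and 23.5% of the 34 bulk promoters, beside 22.3% of all 21045 promoters in the table. E-boxes were in 26.4% and 17.6%, beside 23.0% of all. GLI matches were in 0.518% and 0 of 34, beside 0.162% of all. These shares differ by few promoters, and a match of letters is not a bound site. Both promoter sets are small parts of the full-list classes, which lie mostly away from gene ends.

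Peaks were then assigned to the nearest protein-coding gene within 100 kb, and log2(peaks per gene + 1) was compared in a limma fit over all 12 libraries that also held the length of each list. Of 12424 genes tested, 156 (1.26%) passed an adjusted p of 0.05 for SOX2+/MKI67- against SOX2-, 99 of them higher (0.797%) and 57 lower (0.459%). The median difference over all genes was 0.02. Genes higher in the non-cycling cells were led by Rnf182, S1pr2 and Pkhd1 and included 3 members of the stem and progenitor list and 2 of the oligodendrocyte list. Genes lower were led by Cdk6, Man1c1 and Sptb and included 2 members of the granule neuron progenitor list. No theme was tested for these calls. All 99 higher genes and 20 of the 57 lower genes had ranges that did not overlap between the 2 groups, where 6.71% of all tested genes were higher and 0.749% lower without overlap. Of the 156 genes, 37 had a constant count within every sort, so their p-values rest on spread borrowed from other genes. Both non-cycling libraries had equal counts in 76.3% of the 156, beside 61.0% of all tested genes. The lower calls rest on the term for list length. Without that term 54 genes passed, 52 higher and 2 lower.

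The gene calls need both non-cycling libraries. With SOX2+/MKI67- replicate 1 left out 0 genes passed in limma (1359 at an unadjusted p under 0.05), and with replicate 2 left out 1 passed, Adhfe1 (1467 unadjusted), the lone library being assumed to vary like the other groups. Leaving out a SOX2- library gave 247, 73, 102 or 69 calls for replicates 1 to 4. At equal list length 278 of 6855 genes passed (4.06%), 180 higher (2.63%) and 98 lower (1.43%), and 26 genes passed in both fits. Those 26 included Olig2, Pkhd1, Neu4, Pld2, Scrg1, Gpr37l1 and Epas1 among 22 higher genes, and the 4 lower genes Cdk15, Lrig3, Mindy4 and Opa1.

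Rnf182, a ubiquitin ligase gene, headed the higher genes. It had 3 peaks in each SOX2+/MKI67- library and 0 in each SOX2- library, with 2, 1, 2 and 3 in SOX2+ and 3 and 3 in cycling libraries. S1pr2, a sphingosine-1-phosphate receptor, had 2 and 2 against 0 in all 4. Myrip, which links vesicles to myosin motors, had 5 and 6 peaks against 0, 1, 0 and 1 (difference 2.00 ± 0.242 on the log2(peaks + 1) scale, limma adjusted p = 0.0146). Pkhd1, mutated in polycystic kidney disease, had 3 and 3 against 0 in all 4, and also passed at equal length (1.29, adjusted p = 0.0186). The other 8 of the 12 genes with the smallest p were Cyp2j9, Susd5, 4930432M17Rik, Zfp648, Nkx2-2, Noxa1, Neu4 and Vps41. In each of these 12 genes both non-cycling libraries exceeded every bulk library, and each also had at least 1 peak in all 6 other SOX2+ libraries. Of the 12, only Pkhd1, Cyp2j9 and Neu4 passed at equal length. The others were tested there and did not pass, with limma adjusted p from 0.0693 (Zfp648) to 0.526 (S1pr2). A log2 difference from a group at 0 depends on the added count of 1 and understates the change. Rnf182 and Vps41 lie on chromosome 13, as does Ptch1. Non-cycling regions made up 8.67% of all regions on chromosome 13, beside 6.21% over all chromosomes. That share ran from 3.61% on chromosome X to 9.26% on chromosome 18. Bulk regions made up 0.354% of regions on chromosome 13, beside 0.613% over all chromosomes. Promoter windows that overlapped non-cycling regions included those of Cltb, Sncb, Hfe, Nqo2, Slc35b3 and Txndc15, all on chromosome 13. Copy number was not measured, and whether it takes part was not tested.

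Cdk6, the kinase that drives entry into the cell cycle, headed the lower genes. It had 0 peaks in both SOX2+/MKI67- libraries and 1, 6, 3 and 6 in SOX2- replicates 1 to 4 (difference -2.46 ± 0.264, adjusted p = 0.0146), with 0, 0, 1 and 2 in SOX2+ and 1 and 2 in cycling libraries. Lhx1, a LIM-homeodomain factor of neuron precursors, had 0 and 0 against 1, 6, 3 and 6. Zic2, a zinc-finger factor of granule neuron progenitors, had 0 and 0 against 1, 2, 3 and 3. Ebf3, a factor of neuronal maturation, had 0 and 0 against 0, 10, 2 and 8, so its groups overlapped at 0. In Ebf3, Man1c1, Sptb, Fam53b, Gabbr2, Map2k6 and Tmem178b the shortest bulk list fell to or below the non-cycling values, while Cdk6, Lhx1, Cacng2, Zic2 and Otx1 were lower in both non-cycling libraries than in any bulk library. None of these 12 lower genes passed at equal length, where Man1c1, Sptb and Tmem178b could not be tested and Cacng2 had the opposite sign.

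**Figure D3:**
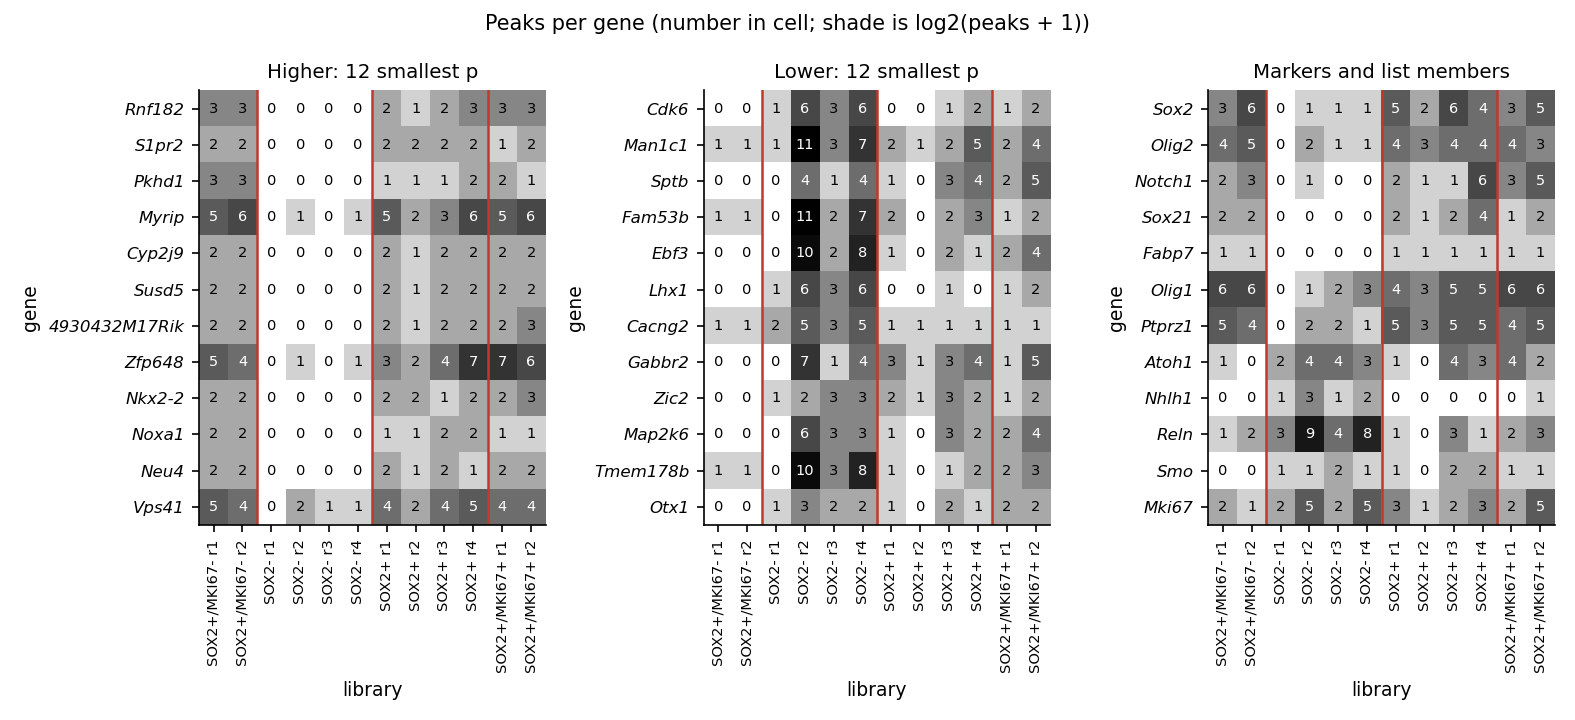
Peaks per gene in the 12 libraries, with the number in each cell and shading by log2(peaks + 1), for the 12 higher and 12 lower genes of smallest p and for 12 markers or list members. Red lines separate the sorts. The higher genes have 0 to 2 peaks in every SOX2- library and 2 to 6 in both SOX2+/MKI67- libraries.

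The sort markers were read as a check of the labels. Sox2 had 3 and 6 peaks in SOX2+/MKI67- libraries and 0, 1, 1 and 1 in SOX2- libraries. The groups did not overlap, but the difference of 1.49 ± 0.310 just missed the threshold on full lists (adjusted p = 0.0526) and passed at equal length (1.58, adjusted p = 4e-04). Since cells were sorted on SOX2, this checks the labels and is no separate finding. Olig2 rose, with 4 and 5 peaks against 0, 2, 1 and 1 (1.40 ± 0.243, adjusted p = 0.0278), and passed again at equal length (1.5, adjusted p = 0.0101). Mki67 had 2 and 1 peaks against 2, 5, 2 and 5 (-0.99 ± 0.274, adjusted p = 0.116), and its gene-end region, chr7:135716217-135716866, was in all 12 lists.

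At the Sox2 locus the extra peaks were distal. The gene-end region chr3:34649337-34650204 was in every list but that of SOX2- replicate 1. Region chr3:34722302-34723038, 70.2 kb from the gene, was in both non-cycling lists (folds 5.70 and 6.06), in all 4 SOX2+ and both cycling lists, and in no SOX2- list. A second, chr3:34664026-34664608 at 11.9 kb, was weaker (folds 3.47 and 3.24) and was shared by 2 SOX2+ lists and 1 cycling list.

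The neighbouring genes Olig2 and Olig1 held 7 non-cycling regions between them. At 4.99 kb from Olig2 lay the strong region already named. At 33.8 kb on its other side lay chr16:91191235-91192217, with folds of 3.75 and 4.67, and beyond Olig1 lay chr16:91305133-91306134, with folds of 4.06 and 4.30. All 3 were in every SOX2+ and cycling list. The region chr16:91246402-91246875, between the genes, was in both non-cycling lists (folds 4.28 and 4.16) but in only 1 SOX2+ and no cycling list. A region on the other side of Olig2, chr16:91202895-91203314, showed the opposite, being in 3 SOX2- lists and in no list of any SOX2+ sort.

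Atoh1 and Reln gave the reverse picture. Atoh1 had 1 and 0 peaks in non-cycling and 2, 4, 4 and 3 in bulk libraries (-1.76 ± 0.488, adjusted p = 0.119), and passed only at equal length (-1.58, adjusted p = 0.0273). Its promoter region chr6:64728659-64729276 and chr6:64734220-64734987, 3.36 kb beyond the gene, were in all SOX2- and both cycling lists, in 2 and 3 of the SOX2+ lists and in neither non-cycling list. Reln, which encodes a guidance protein secreted by neurons, had 1 and 2 peaks against 3, 9, 4 and 8 (-1.65 ± 0.341, adjusted p = 0.0514; at equal length -1.65, adjusted p = 0.00425). Of its 2 bulk regions, both inside the gene, chr5:21949032-21949694 was also in both cycling lists and chr5:22093134-22093743 was in no SOX2+ or cycling list.

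**Figure D4:**
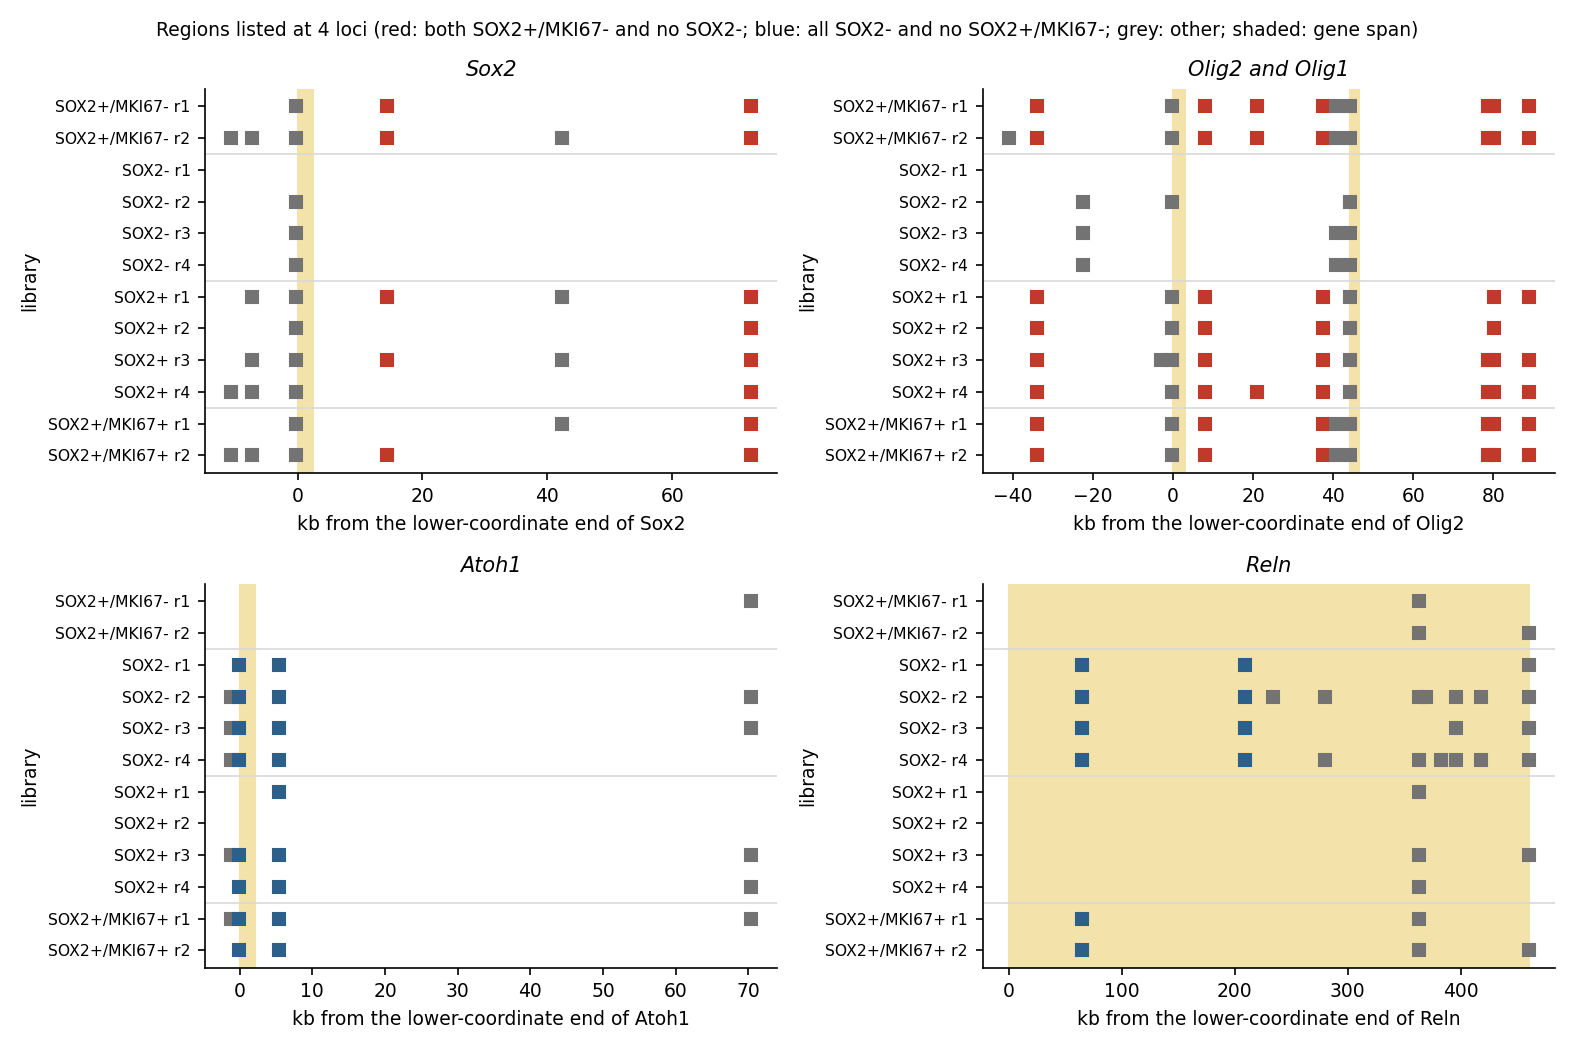
Regions listed in each of the 12 libraries around Sox2, Olig2 with Olig1, Atoh1 and Reln, by distance in kb from the gene's lower-coordinate end. Red squares are non-cycling regions, blue squares bulk regions, grey squares all others, and shading is the gene span. The red regions recur in most SOX2+ and cycling rows and the blue regions at Atoh1 in both cycling rows.

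Among stem and progenitor genes 3 of 19 tested members rose and 0 fell (0.797% and 0.459% of all genes), with a median difference of 0.49 beside 0.02 for all genes. Among those that rose, Sox21 had 2 and 2 peaks and Fabp7 1 and 1, each against 0 in all 4 SOX2- libraries. Fabp7 had a constant count within every sort, so its call rests on spread borrowed from other genes. Neither gene could be tested at equal length. Of members that did not pass, Notch1 had 2 and 3 against 0, 1, 0 and 0, and Ptprz1, a phosphatase of radial glia, 5 and 4 against 0, 2, 2 and 1. Others pointed down, among them Sox9, with 0 and 0 against 1, 7, 0 and 6 (-2.05 ± 0.530, adjusted p = 0.0945), and Cd44, with 0 and 0 against 1, 2, 1 and 1. Cd44 and Lhx2 passed as lower at equal length (both -1.0, adjusted p = 3e-04 and 0.0388), where 2 of 12 tested members rose, Sox2 among them, and the median was 0.02, so the list did not move as one. Of the 97 regions assigned to its 20 genes, 14 were non-cycling (14.4%, beside 6.07% for all genes) and 2 were bulk (2.06%, beside 0.529%).

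The oligodendrocyte lineage list had the highest median of the 18 lists, 0.92 over 12 tested members, of which Olig2 and Nkx2-2 rose and 0 fell. Of all genes tested 0.797% rose and 0.459% fell. Nkx2-2, a homeodomain factor of oligodendrocyte precursors, had 2 and 2 peaks against 0 in all 4 (1.59 ± 0.215, adjusted p = 0.0192). Olig1 had 6 and 6 against 0, 1, 2 and 3 and Cspg4, the NG2 proteoglycan, 3 and 5 against 0, 2, 0 and 1, and neither passed. Of 65 regions at these genes 18 (27.7%, beside 6.07% for all genes) were non-cycling, and 1 (1.54%, beside 0.529%) was bulk, inside Mbp. The 18 included regions at Olig1, Olig2, Nkx2-2, Cspg4, Pdgfra, Sox10, Mbp and Gpr17. Mag and Cnp, genes of myelin, and Nkx6-2 had no peak in any of the 6 libraries. Summed over the list, peaks numbered 26 to 32 in SOX2+/MKI67- and 3 to 16 in SOX2- libraries, and whether cells of this lineage from outside the tumour take part was not tested. Only 6 members could be tested at equal length, where Olig2 passed and the median was 0.77.

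Astrocyte and Bergmann glia genes had a median of 0.40 with 0 of 15 passing, where 1.26% of all genes passed. Higher without overlap between groups were 2 of the 15, beside 6.71% of all genes. They were Aldh1l1 (1 and 3 against 0 in all 4) and S100b (1 and 2 against 0 in all 4). Of the 15, 4 were negative, and the smallest p belonged to one of these, the nuclear factor gene Nfib, with 3 and 3 peaks against 3, 13, 4 and 9 (-1.15 ± 0.262, adjusted p = 0.0649). Of their 94 regions 8 were non-cycling (8.51%) and 0 bulk, beside 6.07% and 0.529% for all genes. At equal length the median was 0.09.

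Granule neuron progenitor genes lay on the other side. The median of 20 members was -0.64, 18 were negative, and Zic2 and Nhlh1 fell. Of all 12424 genes 6100 were negative and 0.459% fell. Summed over the list, peaks overlapped between groups, with 25 to 27 in SOX2+/MKI67- and 13 to 76 in SOX2- libraries. Nhlh1, a helix-loop-helix factor of postmitotic precursors, had 0 and 0 peaks against 1, 3, 1 and 2 (-1.51 ± 0.287, adjusted p = 0.0348). It did not pass when any 1 SOX2- library was left out, and it could not be tested at equal length. Mycn, an oncogene of this lineage, had the opposite sign, with 5 and 6 against 2, 4, 2 and 3 (0.71 ± 0.176, adjusted p = 0.0823). At equal length 14 members were tested with a median of -0.70, and only Atoh1 passed. Of 109 regions 6 were bulk (5.5%, beside 0.529% for all genes), at Atoh1, Zic2, Zic5, Ccnd2 and Sfrp1. Another 5 were non-cycling (4.59%, beside 6.07%).

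Neuronal differentiation genes had a median of -0.50 over 17 tested members and none passed on full lists, where 1.26% of all genes passed. Their summed peaks overlapped between groups, with 27 to 31 in SOX2+/MKI67- and 11 to 103 in SOX2- libraries. Gap43, a growth cone protein, had 0 and 2 peaks against 1, 11, 5 and 7, so that the shortest bulk list overlapped the non-cycling values. At equal length Reln and Stmn2, a microtubule regulator of neurons, passed as lower. Of 143 regions at these genes 0 were non-cycling and 5 (3.50%) bulk, beside 6.07% and 0.529% for all genes.

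Hedgehog pathway genes gave no call among 17 tested, with a median of -0.25, where 1.26% of all genes passed. Smo had 0 and 0 peaks against 1, 1, 2 and 1 (-1.25 ± 0.373, adjusted p = 0.134), and its gene-end region chr6:29735308-29736470 was a bulk region shared by 3 SOX2+ and both cycling lists. The target genes Gli1 (0 and 1 against 0, 1, 0 and 2) and Ptch1 (1 and 2 against 0, 3, 2 and 2) overlapped between groups. Sufu, a repressor of GLI factors, passed only at equal length (-0.58, adjusted p = 3e-04), and held a bulk region inside the gene. Of 94 regions at the list's genes 2 (2.13%, beside 0.529% for all genes) were bulk, those of Smo and Sufu. Another 3 (3.19%, beside 6.07% for all genes) were non-cycling, nearest to Gli2, Gli3 and Boc.

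Notch, BMP and TGF-beta, and Wnt genes gave 0 calls among 17, 22 and 18 tested, with medians of -0.02, 0.23 and 0.08. Of all genes tested 1.26% passed. Non-cycling regions made up 7.35%, 11.5% and 9.89% of regions at the 3 lists, beside 6.07% for all genes. Cell cycle genes had a median of -0.13 and Cdk6 alone fell. The list of cell cycle inhibitors and quiescence genes had 0 calls among 20 and a median of -0.12. Of its 69 regions 0 were non-cycling and 1 was bulk (1.45%), at Btg1, beside 6.07% and 0.529% for all genes. Cdkn1b, the inhibitor p27, had 2 and 2 peaks against 2, 2, 3 and 2, and Cdkn1c 1 and 1 against 0, 1, 0 and 1. Among 15 immediate early genes Nr4a1 (4 and 5 against 1, 2, 1 and 2, adjusted p = 0.0219) and Arc (1 and 1 against 0 in all 4) rose. Of all genes 0.797% rose. Neither Nr4a1 nor Arc passed at equal length. Housekeeping genes had 0 calls and a median of 0.04.

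**Figure D5:**
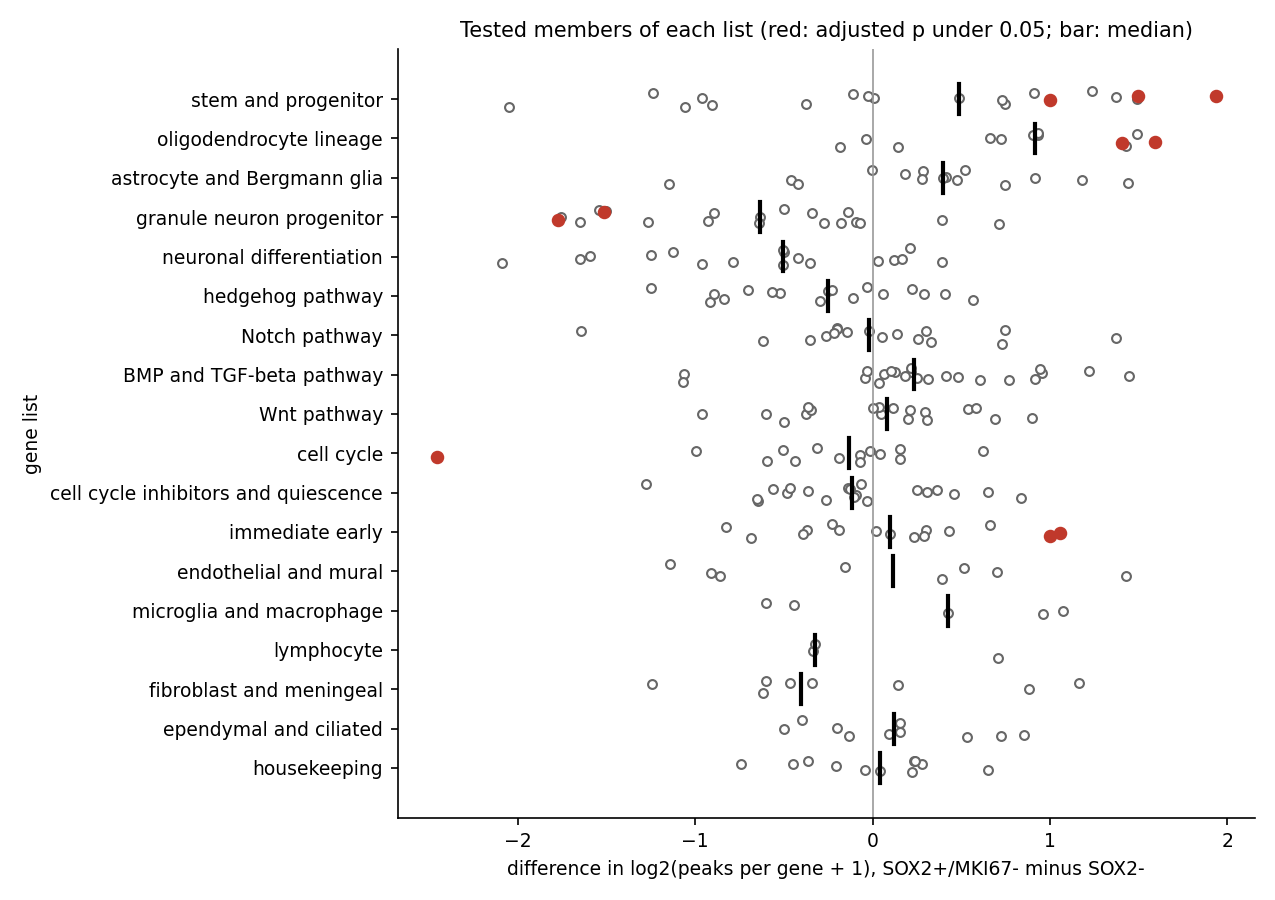
Difference in log2(peaks per gene + 1), SOX2+/MKI67- minus SOX2-, of every tested member of 18 gene lists, with red points for adjusted p under 0.05 and a bar at each median. Medians run from -0.64 for granule neuron progenitor genes to 0.92 for oligodendrocyte lineage genes, and every list overlaps 0.

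Markers of cells outside the tumour lineage were listed at low and uneven numbers. Of 12 microglia and macrophage genes, 7 (Cx3cr1, Csf1r, Aif1, Itgam, Cd68, Trem2 and C1qa) had no peak in any of the 6 libraries, and the summed peaks of the list were 3 to 6 in SOX2+/MKI67- and 0 to 4 in SOX2- libraries. Ptprc, the pan-leukocyte gene, had 2 and 2 peaks against 0, 0, 0 and 2 and held 1 strong non-cycling region, inside the gene. Of 10 lymphocyte genes 7 were at 0 throughout, with sums of 4 to 6 and 0 to 9. Most endothelial and fibroblast markers had peaks, as only 2 of 12 endothelial and mural genes and 2 of 10 fibroblast and meningeal genes were at 0 throughout. The former summed to 12 in both non-cycling libraries and 0 to 19 in bulk, and the latter to 5 to 9 and 0 to 15. None of 10 ependymal and ciliated genes was at 0 throughout, with sums of 15 to 18 and 3 to 20. Non-cycling regions were 3 of 37 (8.11%) at endothelial and mural and 1 of 11 (9.09%) at microglia and macrophage genes. They were 2 of 15 (13.3%) at lymphocyte, 2 of 42 (4.76%) at fibroblast and meningeal and 4 of 33 (12.1%) at ependymal and ciliated genes. The share for all genes was 6.07%, so shares above it were not confined to stem and glial lists. No gene of these 5 lists passed on full lists. Dnah5, a cilia motor gene, rose at equal length (1.0, adjusted p = 2e-04). The part of such cells in the differences above was not tested.

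Against the other SOX2+ sorts no gene was called on full lists in the fit used here. In limma 0 of 12424 genes (0.0%) passed for SOX2+/MKI67- minus SOX2+ (520 at an unadjusted p under 0.05) and 0 (0.0%) for SOX2+/MKI67- minus SOX2+/MKI67+ (689 unadjusted). With genes of constant count kept, 16 and 30 passed, and in the fit blocked on replicate number 135 passed against SOX2+ and 0 against SOX2+/MKI67+. At equal length 42 of 6855 (0.613%) and 55 (0.802%) passed. The marker genes ran together, as Sox2 had 5, 2, 6 and 4 peaks in SOX2+ and 3 and 5 in cycling libraries, and Olig2 4, 3, 4 and 4 and then 4 and 3. Absence of a call with 2 libraries does not show that non-cycling and other SOX2+ cells have the same open regions. The SOX2+ sort can also itself include non-cycling cells.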

How the data were processed

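ATAC-seq was measured in 12 sorted libraries, sequenced as 50 bp single-end reads. Alignment was with Bowtie2 to mm10 and peak calling with MACS2, per the submitters' processing notes. For versions, duplicate handling and transposase-offset correction, nothing was given in the sources used here. The authors deposited 1 peak list per library, giving a score, a fold ratio over local background, a -log10 p-value and a -log10 q-value per peak. Values were used only within a list, to rank peaks. Read counts were not used here, so depth is unknown and limits every absence.

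Peaks overlapping by at least 1 bp were merged. Genes were 21631 protein-coding spans of RefSeq GRCm38.p6, which hold no strand, so gene ends within 1 kb replaced start sites. A peak belonged to the nearest gene if within 100 kb. Peaks per gene were fitted with limma 3.58.1 (R 4.3.3, moderated with a mean-variance trend) on log2(peaks + 1) with 4 groups and log10 list length, for genes listed in 2 or more libraries, with Benjamini-Hochberg adjustment over all of them. The 1761 genes with the same count in all libraries were left out, a departure from the plan chosen after seeing that they collapse the variance estimate. With them, as planned, the fit gave 139 calls. The script was tested on simulated data. Regions were classed by presence, and list-wide measures compared by exact permutation over libraries.

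Groups came from the titles. The 2 sorts share replicate numbers, but no label says whether same-numbered libraries came from 1 animal, and the numbers were not treated as pairs. Same-numbered libraries deviated together by correlations of 0.0324 and 0.0498. With 2 SOX2+/MKI67- libraries, their deviations from the group mean mirror each other, so these correlations cannot decide whether animals were shared. Named genes were Sox2, Olig2 and Mki67, the 12 smallest p in each direction, list members that passed and up to 4 further members per list. Some list members are counted in their lists but are not reported here by name. Named regions were the 12 best by worst rank per class and class regions at named genes. A few other genes were named after their values were seen: those at small counts of regions, those passing in both fits, and list members given for contrast. The libraries and the 18 gene lists (291 symbols, all matched) were chosen with earlier results of these data known. Alternatives were list length, q-value minimum, pseudocount, filter, window, covariate, samples in the fit, overlap rules, replicate block and leaving out each SOX2+/MKI67- or SOX2- library.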

Additional observations from a re-analysis of the deposited data

Results flagged for a closer look

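With 4 libraries in a group, a value was singled out when its gap to the nearest other made up most of the group's range, which chance does for about 1 in 20 groups. Among the strong non-cycling regions, SOX2+ replicate 2 listed 79.2% where the other 3 SOX2+ libraries listed 96.3% to 99.8%. This library also had the shortest SOX2+ list, 9377 peaks. Of 66 named genes 6 had 1 SOX2- library apart from the other 3, which is easily met by small whole numbers. Sox2 had 0 peaks in SOX2- replicate 1, where the others had 1. Notch1 and Irf8 had 1 peak in replicate 2 only, and Smad9 2 in replicate 2 only, each against 0 in the others. Cd44 had 2 peaks in replicate 2 and Smo 2 in replicate 3, against 1 in the others.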

How the results depend on the processing

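Calls of SOX2+/MKI67- against SOX2- numbered 156 in the fit reported. They numbered 278 at equal list length, 54 without the list-length term and 619 in a fit of only the 6 libraries (462 higher, 157 lower), and 0 to 247 when 1 library was left out. Against SOX2+ the 0 calls became 42 at equal length, 135 with the replicate block and 16 with constant genes kept, and against SOX2+/MKI67+ they became 55 and, with constant genes kept, 30. Leaving out 1 SOX2- library gave 0 calls in both of these comparisons, though SOX2- libraries enter them only through the shared fit. No SOX2+ or SOX2+/MKI67+ library was left out. With the replicate block 199 genes passed against SOX2-, 182 higher and 17 lower. No label says whether same-numbered libraries share an animal, so the blocked fit is no measure of a weaker or stronger effect.

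Non-cycling regions numbered 2749, 787 at equal length and 2749 to 5237 with 1 library left out. Bulk regions numbered 271, 132 at a -log10 q-value of at least 5, 1621 when 3 of 4 SOX2- lists sufficed and 274 to 1491 with 1 library left out. The gene-end difference was -4.91 percentage points, from -10.6 to 1.94 with 1 library left out. The similarity difference stayed positive in each alternative tried, from 0.00291 to 0.145.

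Of 30 named genes that passed, 30 passed with a pseudocount of 0.5 and under both other library filters, 22 of 29 with a 10 kb window, 13 at the stricter q-value, 11 without the length term and 4 of 24 at equal length. Signs changed for Cacng2 at equal length (0.35) and for Gpr17 at the stricter q-value (-0.083). The causes were not tested.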
